A study of Mus musculus with 123 samples.

Results

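The genes described here encode the enzymes of oxidative phosphorylation. They were taken by name from the UMI table, as the protein-coding rows whose symbols start with Nduf and one of the letters a, b, c, s or v, with Uqcr, Cox4 to Cox8, Atp5 or mt-, or are Sdha, Sdhb, Sdhc or Sdhd. This rule found 107 of the 29022 genes in the table, of which 94 lie on nuclear chromosomes and 13 on the mitochondrial genome. The nuclear genes comprise 37 subunits of complex I (NADH dehydrogenase), 4 of complex II (succinate dehydrogenase), 8 of complex III (cytochrome bc1), 20 of complex IV (cytochrome c oxidase, with Ndufa4 placed here), 17 of complex V (ATP synthase) and the 8 complex I assembly factors Ndufaf1 to Ndufaf8. The mitochondrial genes comprise 7 subunits of complex I, 1 of complex III, 3 of complex IV and 2 of complex V. Of the nuclear genes 90 passed the detection filter, as did all 13 mitochondrial genes. The 4 that did not were Cox7b2, Cox8b, Cox8c and Ndufa4l2.

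RNA was measured in single morulae or inner cell masses (ICMs) of B6C3F1 mouse embryos, 96 Ctrl and KO and 27 MWT, in 16 groups of 5 to 8. Females flox/flox for Oct4 or Sox2 and carrying ZP3-Cre, which deletes the floxed gene in the growing oocyte, were crossed to males heterozygous for a null allele marked by mKO2 (Oct4) or EGFP (Sox2). Their embryos either carried the marked allele and lacked the gene from both parents (KO) or kept the intact paternal allele after maternal deletion (Ctrl). A further set of controls carries the genotype label MWT, which the labels do not spell out. The study's text speaks of wildtype embryos beside its maternal KO embryos but does not use this label, and their parents are not given in the sources used here. Ctrl and KO had 8 embryos at each of the morula (E2.75), early ICM (E3.75) and late ICM (E4.5) stages in both lines, and MWT had 7, 5 and 8 in the Oct4 line and 7 early ICMs in the Sox2 line. Morulae were whole embryos. ICMs were isolated by immunosurgery after culture from E2.5 in KSOM with 1 µM of the MEK inhibitor PD0325901, so stage, tissue and culture cannot be told apart in any comparison of ICMs with morulae. The Oct4 MWT early ICMs carry no label for the inhibitor, and the titles and source names of the Oct4 MWT ICMs disagree on the stage. The titles were used.

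Oxidative phosphorylation passes electrons from NADH and succinate through complexes I to IV of the inner mitochondrial membrane and uses the resulting proton gradient to make ATP at complex V. Most subunits are encoded in the nucleus and imported, while the mitochondrial genome encodes a small hydrophobic set that is transcribed as long precursors and cut into separate mRNAs. Complex II, which is also an enzyme of the citric acid cycle, has no mitochondrially encoded subunit. Early cleavage embryos rely on pyruvate, and oxygen and glucose use rise towards the blastocyst stage.

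Embryos held 525755 to 1344035 UMIs (median 897407) and 12140 to 14169 detected genes. Pou5f1, which encodes Oct4, lay between 13.5 and 91.2 counts per 1000000 (CPM) in Oct4 Ctrl and between 0 and 4.68 in Oct4 KO. Sox2 overlapped between Ctrl and KO morulae of the Sox2 line (3.06 to 32.1 against 0 to 3.37 CPM) and did not overlap in ICMs (at least 71.2 in Ctrl and at most 38.3 in KO). CPM values were computed over TMM-scaled library totals. Since 3′ ends were counted, with 1 UMI for each molecule, levels were not divided by transcript length. Calls rest on edgeR's quasi-likelihood test over all genes, at an adjusted p (Benjamini-Hochberg) below 0.05, and log2 fold changes are given ± SE. Beside each comparison stand the share of all tested genes called, that share by direction and the share with a 2-fold minimum added.

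Together the 107 genes took between 4.54% (Sox2 KO morulae) and 8.13% (Oct4 MWT late ICMs) of all UMIs as group means, and in 14 of the 16 groups the 13 mitochondrial genes held more UMIs than the 94 nuclear genes. The nuclear share was higher in every late ICM than in any morula of the same line. In Oct4 Ctrl it was 2.31% ± 0.118 in morulae, 2.60% ± 0.220 in early ICMs and 3.24% ± 0.465 in late ICMs (mean ± SD, n = 8 each). In Sox2 Ctrl it was 1.86% ± 0.142, 2.88% ± 0.234 and 3.41% ± 0.209. The mitochondrial share followed another course. It was 3.96% ± 0.288, 3.51% ± 0.369 and 4.80% ± 1.02 in Oct4 Ctrl, with its lowest mean in early ICMs. It was 3.27% ± 0.506, 4.06% ± 0.350 and 2.99% ± 0.629 in Sox2 Ctrl, with its highest mean in early ICMs. The late ICMs overlapped the earlier stages in both lines.

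**Figure D1:**
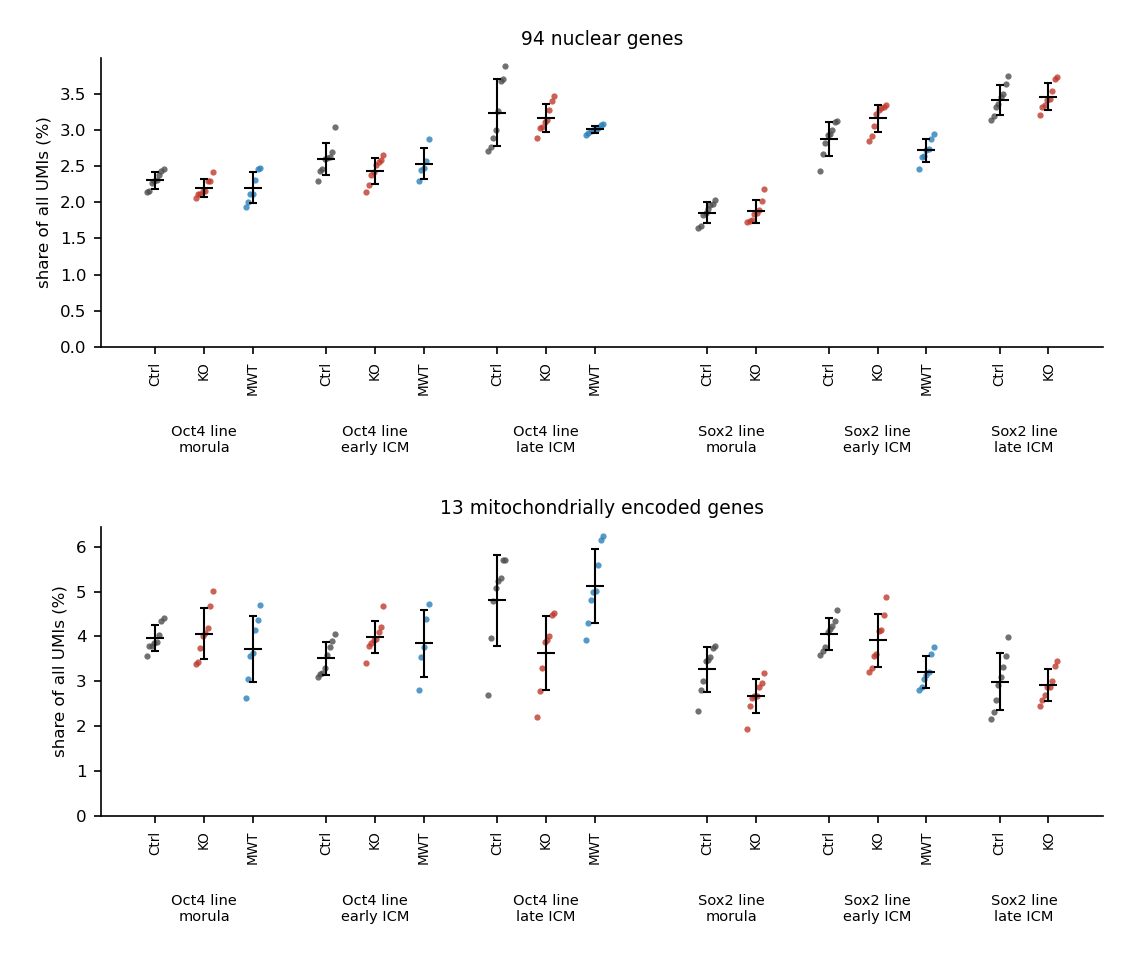
Share of all UMIs (%, y axis) from the 94 nuclear genes (top) and the 13 mitochondrially encoded genes (bottom) in each embryo (points), grouped by line, stage and genotype (x axis). Black bars show mean and SD (n = 5 to 8). The nuclear share of Ctrl averages 2.31% in morulae and 3.24% in late ICMs of the Oct4 line and 1.86% and 3.41% in the Sox2 line, while the mitochondrial share of late ICMs averages 4.80% in Oct4 Ctrl and 2.99% in Sox2 Ctrl.

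The ratio of mitochondrial to nuclear UMIs of the set was 1.72 ± 0.136 in Oct4 Ctrl morulae and 1.77 ± 0.298 in Sox2 Ctrl morulae (mean ± SD, n = 8 each). In early and late ICMs it was 1.36 ± 0.201 and 1.54 ± 0.466 in Oct4 Ctrl and 1.42 ± 0.147 and 0.885 ± 0.213 in Sox2 Ctrl. The mitochondrial UMIs were concentrated in few genes. The 4 most abundant mitochondrial genes of each group held 84.3% to 91.4% of the mitochondrial UMIs, whereas the 4 most abundant nuclear genes held 18% to 25% of the nuclear ones. The highest mean over all embryos within each complex was that of mt-Nd1 in complex I (11693 CPM), mt-Cytb, the only mitochondrially encoded subunit of complex III, in complex III (7494 CPM), and Atp5g1, a gene for the c subunit of the proton-driven ring, in complex V (1349 CPM). Among nuclear genes of complex IV it was that of Cox6a1 (1524 CPM), and in complex II that of the membrane anchor Sdhd (173 CPM).

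Between morulae and early ICMs of Oct4 Ctrl 34 of the 90 tested nuclear genes rose and 17 fell, and 3 of the 13 mitochondrial genes rose and 7 fell. Of all 14053 genes tested 48% were called, 23.8% higher and 24.3% lower. With a 2-fold minimum 14 members and 29% of all genes were called. The median log2 fold change was 0.02 over the nuclear genes, -0.50 over the mitochondrial genes and 0.00 over all genes. All 4 subunits of complex II rose, by 0.84 to 1.72 on the log2 scale, and so did 10 of the 17 complex V subunits, while 2 of those fell. Ndufs4, an accessory subunit of the NADH-oxidising arm of complex I, had the largest rise. It ranged from 22.1 CPM over a median of 29.5 to 37.3 in morulae and from 95.6 over 121 to 145 in early ICMs. The groups did not overlap, with a log2 fold change of 2.02 ± 0.16 (adjusted p = 1.28e-19). Cox8a, a small subunit of complex IV, ranged from 1585 over 1759.6 to 2465 CPM in morulae and from 486 over 559 to 783 in early ICMs. Here too the groups did not overlap, and Cox8a fell by 1.66 ± 0.14 (adjusted p = 5.89e-19). Cox4i2, the isoform of subunit 4 best known from lung, had 24 UMIs in 8 Oct4 Ctrl morulae and 2 in 8 early ICMs, and fell by 2.97 ± 0.69 (adjusted p = 0.000231) while its ubiquitous counterpart Cox4i1 rose by 1.11 ± 0.11 (adjusted p = 3.37e-15). Ndufb2 (-1.13) and Atp5e (-1.06) also fell at least 2-fold, and Ndufb9 (1.21), Ndufa10 (1.22) and Sdhd (1.72) rose at least 2-fold.

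In Sox2 Ctrl the same step raised 54 nuclear genes and lowered 15, and raised 6 mitochondrial genes and lowered 1, with 51.7% of all genes called (26.6% higher and 25.2% lower). A 2-fold minimum left 33 members and 31.9% of all genes. The medians were 0.48 over the nuclear genes, 0.42 over the mitochondrial genes and 0.03 over all genes. Complex I contributed 26 of the genes that rose. Atp5g2, another gene for the c subunit, ranged from 20.1 over 22.7 to 27.1 CPM in morulae and from 70.9 over 119 to 186 in early ICMs. The groups were wholly separate, with a log2 fold change of 2.43 ± 0.17 (adjusted p = 3.42e-23). Cox8a, which fell in the Oct4 line, ranged here from 336 over 399 to 570.5 CPM in morulae and from 1289 over 1481 to 1647 in early ICMs. It rose by 1.76 ± 0.14 (adjusted p = 1.67e-20), again without overlap. Uqcrb, a small subunit of complex III, went the other way. It ranged from 548 over 643 to 915 CPM in morulae and from 187 over 239 to 382 in early ICMs, and fell by 1.34 ± 0.14 (adjusted p = 1.11e-13), whereas in Oct4 Ctrl it rose by 1.18 ± 0.14 (adjusted p = 1.63e-11). Ndufb7 (1.05), Uqcrc1 (1.05), Sdhd (1.80) and Ndufab1 (1.81), the mitochondrial acyl carrier protein, rose in Sox2 Ctrl, and Uqcrh (-0.88) fell. Cox4i2 had 6 UMIs in its morulae and none in its early ICMs, and was called lower.

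Over this step 22 nuclear genes were called in the same direction in both lines, which is 43.1% of the 51 called in Oct4 Ctrl and 31.9% of the 69 called in Sox2 Ctrl, and 20 were called in opposite directions. Over all genes the same-direction calls made up 56.1% of those called in Oct4 Ctrl and 52.1% of those in Sox2 Ctrl, and the opposite ones 9.07% and 8.42%. The difference between the stage changes was tested by an interaction term that was chosen after the values were seen. It was called for 55 nuclear genes, with 16 of them higher and 39 lower in the Oct4 line, and for 4 mitochondrial genes, all lower in the Oct4 line, where 26.1% of all genes were called (12.7% higher and 13.4% lower). A 2-fold difference was called for 33 members and 16.6% of all genes. The medians of this difference were -0.36, -0.52 and -0.07 over the nuclear, mitochondrial and all genes. Its extremes among the members were Cox8a (-3.42 ± 0.19, adjusted p = 5.37e-28) and Uqcrb (2.52 ± 0.20, adjusted p = 6.48e-19). Which embryos were prepared together is not given in the sources used here, so line and preparation cannot be told apart. Transcript length moved with the difference. The median was -0.69 over the 57 nuclear members with transcripts under 1000 bases and -0.03 over the 32 longer ones, and over all protein-coding genes tested it was -0.45 for 1048 short and -0.03 for 11089 longer ones. The share of protein-coding UMIs from such short transcripts was 25.4%, 22.9% and 27.6% in morulae, early ICMs and late ICMs of Oct4 Ctrl and 21.2%, 25.4% and 26.8% in Sox2 Ctrl. The part of transcript length in the result was not tested. The median transcript of the nuclear members has 745 bases, against 2308 for all protein-coding genes.

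**Figure D2:**
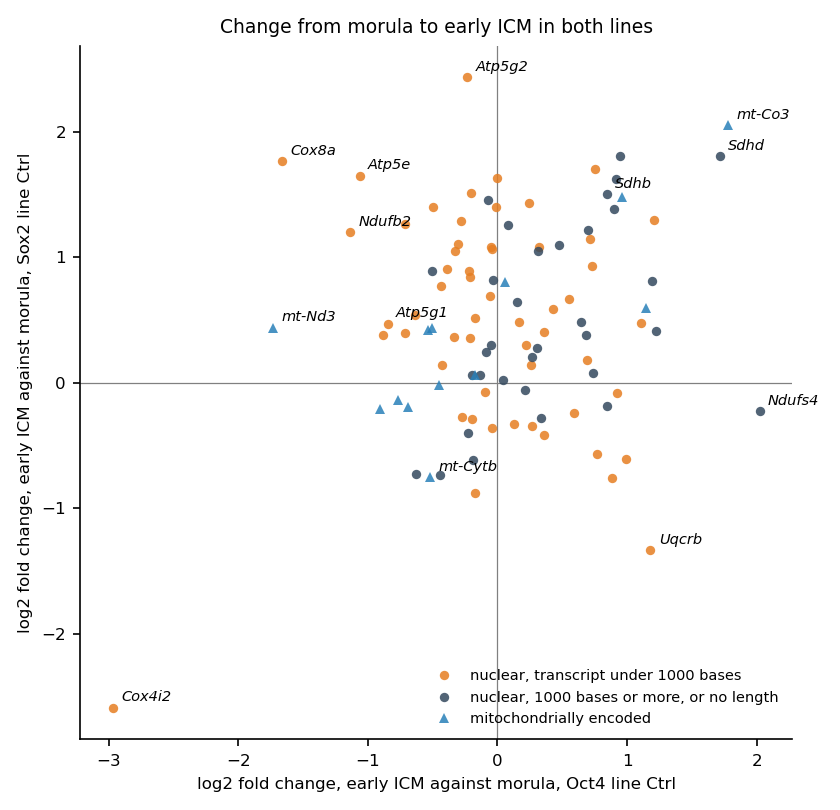
Log2 fold change from morula to early ICM in Oct4 Ctrl (x axis) and Sox2 Ctrl (y axis), 1 point per gene (8 embryos per group). Orange points are nuclear genes with transcripts under 1000 bases, dark points other nuclear genes and blue triangles mitochondrial genes. Cox6a2 is left out because it had no UMI in Oct4 Ctrl early ICMs. Sdhd and mt-Co3 lie at upper right (rising in both lines), Cox8a at upper left and Uqcrb at lower right.

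From early to late ICM 43 nuclear genes rose and 17 fell in Oct4 Ctrl (32.4% of all genes called, 17.2% higher and 15.2% lower), with medians of 0.33 over the nuclear genes and 0.03 over all genes. In Sox2 Ctrl 21 rose and 2 fell (7.21% of all genes called, 3.36% higher and 3.85% lower), with medians of 0.22 and 0.01. A 2-fold minimum left 20 members and 15.6% of all genes in Oct4 Ctrl, and 0 members and 2.9% of all genes in Sox2 Ctrl. In Oct4 Ctrl Atp5k (-1.28) and Atp5mpl (-1.02), small subunits of ATP synthase, fell, and Ndufb11 (1.06), Ndufaf3 (1.10), Ndufb2 (1.61) and Atp5g2 (1.65) rose. Cox6a2 had no UMI in early and 19 in late ICMs of Oct4 Ctrl, at least 8.36-fold higher against the 3 counts over the group that a count of 0 allows. In Sox2 Ctrl the nuclear genes that fell were Atp5g1 (-0.53) and Uqcrfs1 (-0.43), and the largest rises were those of Cox6c (0.72) and Ndufa7 (0.65). In complex I 21 subunits rose and 5 fell in Oct4 Ctrl, and 11 rose with none falling in Sox2 Ctrl. The early and late steps of a line share its early ICMs, so their changes are not independent. Cox8a reached 1044 to 2747 CPM in Oct4 Ctrl late ICMs (median 1972), higher than in early ICMs by 1.74 ± 0.14 (adjusted p = 5e-19) and with no overlap. It ranged from 1445 to 2340.3 CPM (median 1786) in Sox2 Ctrl, so the lines overlapped in late ICMs, which they did not in morulae or early ICMs. Of the 60 nuclear genes called between early and late ICM in Oct4 Ctrl, 45 (75%) were called in the same direction between morula and early ICM in Sox2 Ctrl, where they made up 65.2% of the 69 called, and 4 were called in the opposite direction. Over all genes the same-direction calls made up 50.3% and 31.5%, and the opposite ones 11.4% and 7.14%. Between the late steps of both lines 16 nuclear genes were called in the same direction and 1 in the opposite one. The 16 made up 26.7% of the 60 called in Oct4 Ctrl and 69.6% of the 23 called in Sox2 Ctrl. Over all genes the same-direction calls of the late steps made up 12.2% and 54.9%, and the opposite ones 1.12% and 5.03%. Transcript length moved with the late change as well. In Oct4 Ctrl the median was 0.42 over the 57 short nuclear members and -0.03 over the 32 longer ones, against 0.28 and 0.02 over all protein-coding genes. In Sox2 Ctrl these medians were 0.28 and 0.09, against 0.07 and 0.02. The late nuclear share also differed between the sets 1 and 2 named in the titles of late Ctrl and KO ICMs, of which nothing more is said. In Oct4 Ctrl it ranged from 3.00% to 3.89% in set 1 and from 2.71% to 2.89% in set 2, without overlap, and in Sox2 Ctrl from 3.14% to 3.49% and from 3.36% to 3.74%. The part of length and of the sets in these changes was not tested.

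The mitochondrial genes differed widely in level, although 12 of the 13 lie on the same strand (mt-Nd6 lies on the other). In Oct4 Ctrl morulae the mean was 11764 CPM for mt-Nd1 (GRCm38 chrM:2751-3707), 8609 for mt-Cytb (chrM:14145-15288) and 241 for mt-Co3 (chrM:8607-9390). The step from morula to early ICM raised the 3 cytochrome c oxidase subunits in both lines, namely mt-Co1 (0.96 and 1.48 in Oct4 and Sox2 Ctrl), mt-Co2 (1.15 and 0.60) and mt-Co3 (1.78 and 2.05), and lowered mt-Cytb (-0.52 and -0.75). mt-Co3 ranged from 175 over 234 to 357 CPM in Oct4 Ctrl morulae and from 738 over 832 to 999.5 in early ICMs, and from 234 over 248 to 352 and from 787 over 1030.4 to 1704 in Sox2 Ctrl, so stages did not overlap in either line. mt-Nd3 and mt-Nd4, subunits of the membrane arm of complex I, were called in opposite directions in the lines. mt-Nd3 ranged from 361 over 491 to 544 CPM in Oct4 Ctrl morulae and from 85.7 over 140.1 to 208 in early ICMs, a fall of 1.73 ± 0.19 on the log2 scale, but rose by 0.44 ± 0.19 in Sox2 Ctrl (adjusted p = 6.83e-13 and 0.0402).

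Between early and late ICM 7 mitochondrial genes rose and none fell in Oct4 Ctrl (median 0.59), whereas none rose and 7 fell in Sox2 Ctrl (median -0.53). Of all genes 17.2% rose and 15.2% fell in Oct4 Ctrl and 3.36% rose and 3.85% fell in Sox2 Ctrl, with medians of 0.03 and 0.01. In late ICMs of Sox2 Ctrl the mitochondrial share ranged from 3.10% to 4.00% in title set 1 and from 2.15% to 2.92% in set 2, without overlap, and in Oct4 Ctrl from 2.70% to 5.29% and from 4.78% to 5.70%. The part of the sets in the stage changes was not tested. The genes that rose in Oct4 Ctrl were mt-Atp6 (1.28), mt-Co3 (1.08), mt-Co2 (0.92), mt-Nd4 (0.88), mt-Nd3 (0.83), mt-Cytb (0.75) and mt-Nd6 (0.59). Those that fell in Sox2 Ctrl were mt-Nd3 (-0.94), mt-Atp8 (-0.90), mt-Nd2 (-0.89), mt-Atp6 (-0.70), mt-Nd1 (-0.62), mt-Nd6 (-0.61) and mt-Nd5 (-0.53). The difference between the lines, in the test chosen after the values were seen, was called for 11 of the 13, all higher in the Oct4 line, beside 21 nuclear genes higher and 21 lower and 13% of all genes (6.79% higher and 6.25% lower). A 2-fold difference was called for 16 members and 6.53% of all genes. The 11 ranged from 0.72 ± 0.23 (mt-Nd5, adjusted p = 0.0215) to 1.97 ± 0.28 (mt-Atp6, adjusted p = 1.16e-07), and the other 2, mt-Co1 and mt-Nd4l, did not pass the test. mt-Nd4l had 258 UMIs in all embryos together, against 1259554 for mt-Nd1.

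**Figure D3:**
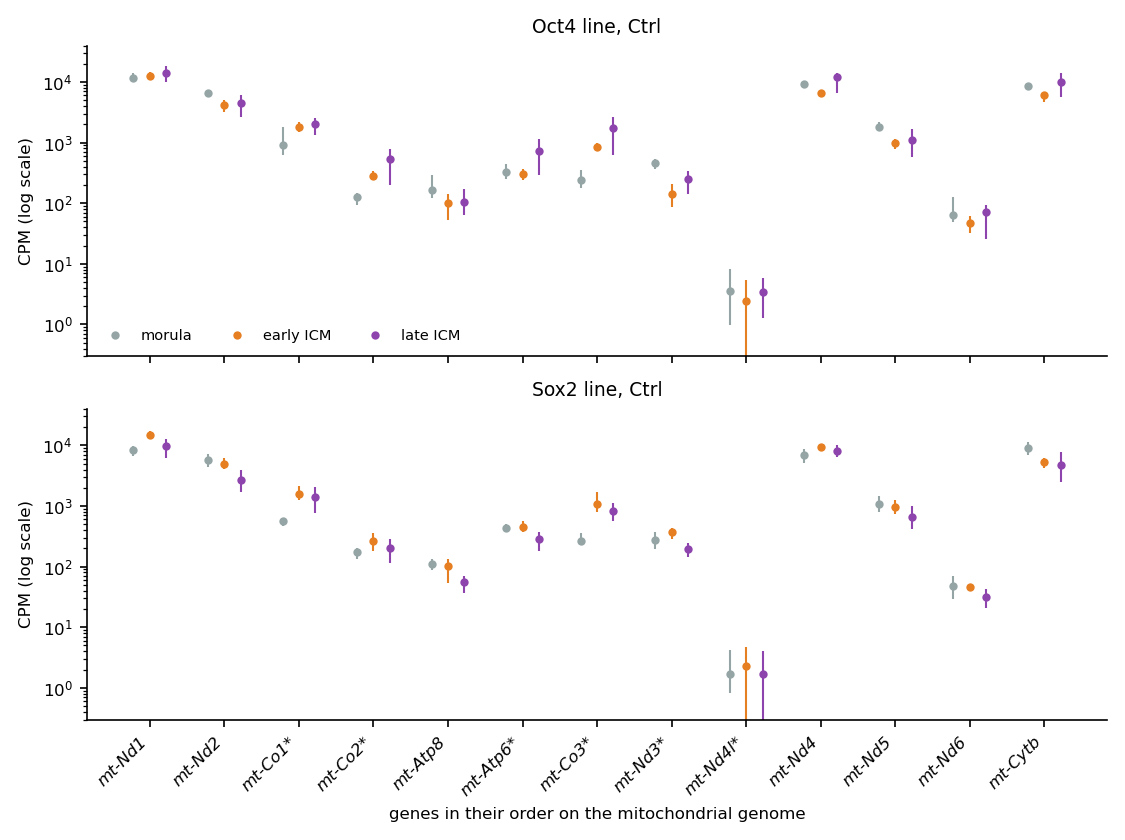
Level of the 13 mitochondrial genes in CPM (y axis, log scale) in Ctrl embryos of both lines, in genome order (x axis). Points are means of 8 embryos, lines run from the lowest to the highest embryo, and lines that reach the bottom axis include embryos at 0. Asterisks mark genes with over 90% of their 50-base windows near the 3′ end found in another gene. mt-Co3 averages 241, 838 and 1748 CPM in the 3 stages of the Oct4 line and 261, 1095 and 823 in the Sox2 line.

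Nuclear copies limit some of these values. Within the last 200 bases, all 50-base windows of mt-Co1 and mt-Co2, 99.3% of those of mt-Co3, 98% of those of mt-Atp6, mt-Nd3 and mt-Nd4l, and 53% of those of mt-Nd2 occur in another annotated gene. No window of mt-Nd1, mt-Nd4, mt-Nd5, mt-Nd6, mt-Cytb or mt-Atp8 does. How reads with several positions were counted is not given in the sources used here, nor is the use of strand, so mt-Nd6, which lies antisense to the end of mt-Nd5, and the overlapping pairs mt-Nd4l and mt-Nd4 and mt-Atp8 and mt-Atp6 are uncertain as well. Among nuclear genes 8 share at least 50% of the windows of their last 500 bases with another gene: Atp5g1, Atp5g2, Atp5h, Atp5l, Atp5o, Cox7c, Ndufs3 and Uqcrc2.

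Loss of Oct4 changed 1 member in morulae, a call lost without the detection filter. Atp5md, a small subunit of ATP synthase, ranged from 172 over 197 to 224 CPM in Ctrl and from 114 over 146 to 159 in KO. The groups did not overlap, and the log2 fold change was -0.46 ± 0.13 (adjusted p = 0.0459), where 1.47% of all genes were called (0.562% higher, 0.904% lower, and 0.804% with a 2-fold minimum). In early ICMs 7 nuclear genes were higher and 13 lower in Oct4 KO than in Ctrl, against 21% of all genes called (10.1% higher and 10.9% lower), and 4 mitochondrial genes were higher with none lower. In late ICMs 18 nuclear genes were higher and 12 lower, against 31.7% of all genes (16% higher and 15.7% lower), and no mitochondrial gene was higher and 5 were lower. The medians over nuclear, mitochondrial and all genes were -0.04, 0.33 and 0.01 in early ICMs and 0.04, -0.32 and -0.01 in late ICMs. A 2-fold minimum left 3 members and 10.9% of all genes in early ICMs, and 5 members and 18.1% of all genes in late ICMs. The counts by direction moved with the scaling. With library totals alone, under which the median of all genes in late ICMs was -0.10, the nuclear counts were 5 higher and 16 lower in early ICMs and 11 higher and 18 lower in late ICMs, and no called gene changed sign.

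Of complex II 3 of the 4 subunits were called lower in Oct4 KO at both ICM stages, beside 10.9% of all genes in early and 15.7% in late ICMs. The summed share of UMIs of complex II, which was not tested, ranged from 0.0471% to 0.0622% in Ctrl and from 0.0303% to 0.0479% in KO early ICMs, an overlap at the edge, and from 0.0553% to 0.0803% against 0.0361% to 0.0684% in late ICMs, with a wider overlap. The subunits called were Sdha, Sdhb and Sdhd, under either scaling. Sdhd, which anchors the enzyme in the membrane (GRCm38 chr9:50596357-50603812, minus strand), ranged from 117 over 162 to 208 CPM in Ctrl early ICMs and from 42.8 over 76.0 to 104 in KO. No KO embryo reached the lowest Ctrl embryo, and the log2 fold change was -1.11 ± 0.17 (adjusted p = 3.96e-07). In late ICMs it ranged from 142 over 259 to 382 CPM in Ctrl and from 99.8 over 143 to 246 in KO, with overlap and a log2 fold change of -0.82 ± 0.17 (adjusted p = 5.03e-05).

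Sdha, the flavoprotein that oxidises succinate (chr13:74322254-74350280, minus strand), ranged from 109 over 128 to 152 CPM in Ctrl early ICMs and from 54.7 over 79.6 to 85.7 in KO. The groups were separate, at -0.73 ± 0.11 (adjusted p = 3.12e-07), and in late ICMs, where they overlapped, the value was -0.38 ± 0.12 (adjusted p = 0.00853). Sdhb, the iron-sulfur subunit (chr4:140961203-140979193, plus strand), ranged from 82.6 over 93.0 to 107 CPM in Ctrl and from 41.3 over 58.5 to 78.4 in KO early ICMs. These too were separate, at -0.66 ± 0.13 (adjusted p = 6.74e-05), with -0.53 ± 0.13 (adjusted p = 0.000498) in late ICMs. Sdhc, the other membrane anchor (chr1:171127165-171150603, minus strand), did not pass the test. It ranged from 126 over 159 to 176 CPM in Ctrl and from 143 over 171 to 232 in KO early ICMs, with log2 fold changes of 0.20 ± 0.11 (adjusted p = 0.202) and 0.25 ± 0.11 (adjusted p = 0.0878) in early and late ICMs. In morulae the 4 values lay between -0.27 and 0.02, and none was called.

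**Figure D4:**
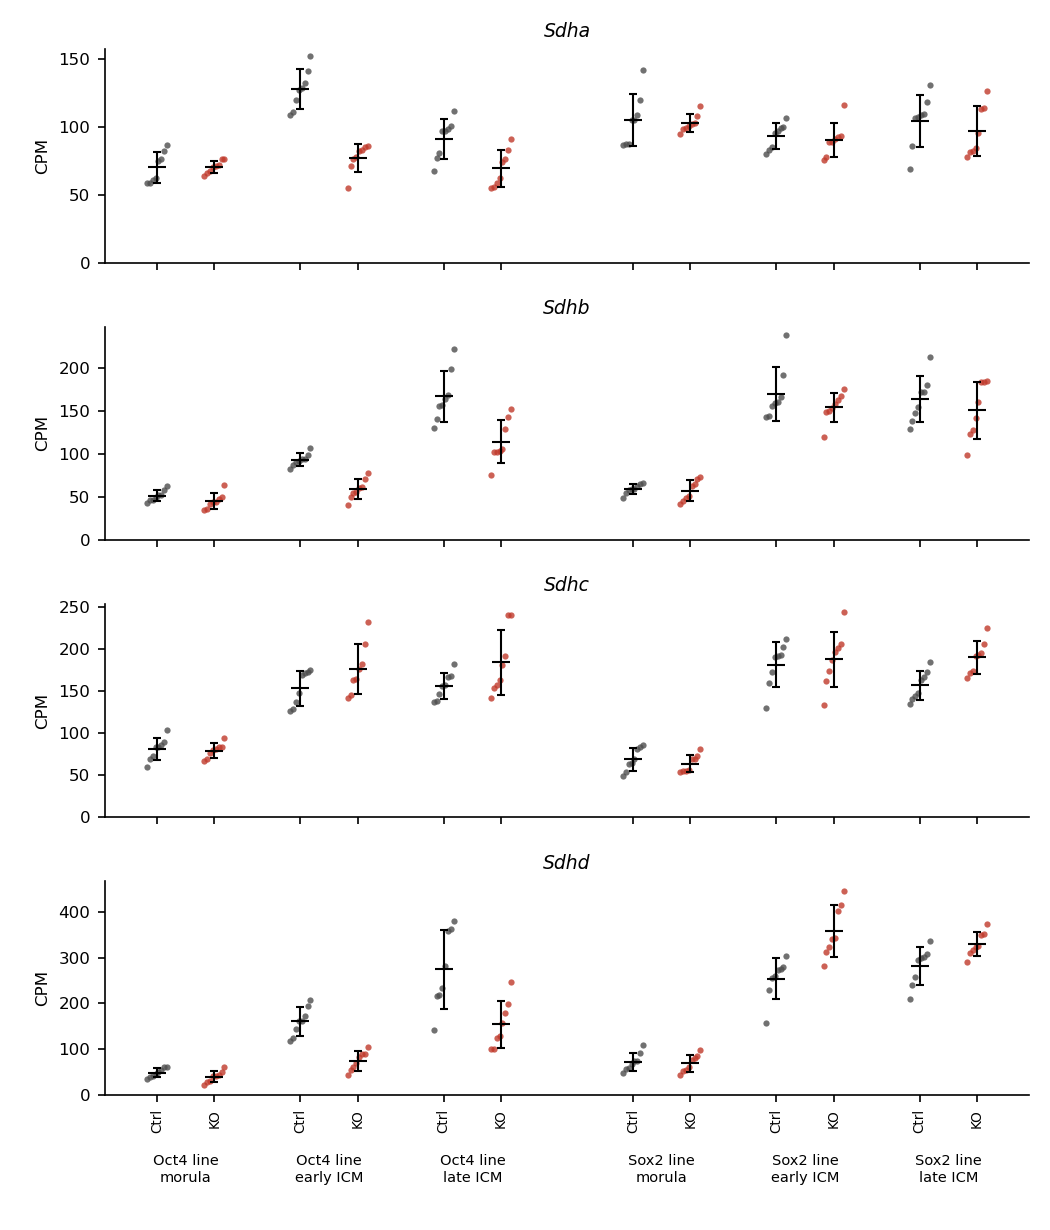
Levels in CPM (y axes) of the 4 complex II genes in each Ctrl and KO embryo (points) of both lines and 3 stages (x axis), with mean and SD (black, n = 8). In early ICMs of the Oct4 line KO lies below Ctrl without overlap for Sdha, Sdhb and Sdhd but not for Sdhc, and in the Sox2 line Sdhd of KO early ICMs (282 to 447) overlaps Ctrl (157 to 304) at the edge.

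The other nuclear genes called lower at both ICM stages in Oct4 KO were Uqcrb, Ndufv2, Ndufs4, Ndufaf4 and Ndufaf5. With Sdha, Sdhb and Sdhd these are 8 of the 13 nuclear genes called in the same direction at both stages, which is 65% of the 20 called in early ICMs and 43.3% of the 30 called in late ICMs, against 61.4% and 40.7% over all genes. Uqcrb ranged from 535 over 710.1 to 813 CPM in Ctrl and from 305 over 432 to 501 in KO early ICMs, and from 184 over 342 to 545 and from 98 over 164 to 204 in late ICMs. The early groups were separate (-0.71 ± 0.14, adjusted p = 5.69e-05), and the late ones overlapped (-1.08 ± 0.15, adjusted p = 2.76e-09). Ndufv2, a core iron-sulfur subunit of complex I, ranged from 109 over 163 to 199.8 CPM in Ctrl and from 51.0 over 82.7 to 118 in KO early ICMs, with overlap (-0.83 ± 0.14, adjusted p = 3.26e-06). In late ICMs it ranged from 167 to 349.7 CPM in Ctrl and from 115 to 163 in KO, without overlap (-0.81 ± 0.14, adjusted p = 1.73e-06). Ndufs4 fell by 0.54 ± 0.15 in early and by 0.78 ± 0.16 in late ICMs (adjusted p = 0.00477 and 4.51e-05).

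Assembly factors help put complex I together without staying in it. Of the 8 in the set, 1 was higher and 3 lower in Oct4 KO early ICMs (median 0.01), beside 10.1% and 10.9% of all genes. In late ICMs none was higher and 4 were lower (median -0.52), beside 16% and 15.7% of all genes. Their summed share in late ICMs ranged from 0.0213% to 0.0298% of UMIs in Ctrl and from 0.0149% to 0.0194% in KO, without overlap. Ndufaf4 ranged from 32.7 over 58.1 to 82.0 CPM in Ctrl and from 12.2 over 24.3 to 29.6 in KO late ICMs. The groups were separate, at -1.34 ± 0.24 (adjusted p = 3.77e-06), and the early value was -0.92 ± 0.24 (adjusted p = 0.00217). Ndufaf5 was scarce, from 5.43 over 8.38 to 16.4 CPM in Ctrl and from 1.21 over 2.36 to 5.16 in KO early ICMs, without overlap (-1.81 ± 0.38, adjusted p = 0.000171). Its value in late ICMs was -1.01 ± 0.35 (adjusted p = 0.0173). Ndufaf2 was lower in early ICMs (-0.95 ± 0.20, adjusted p = 0.0002). Ndufaf8 was the factor called higher in early ICMs (0.87 ± 0.24, adjusted p = 0.0053), and Ndufaf3 (-0.66 ± 0.21, adjusted p = 0.00984) and Ndufaf6 (-0.93 ± 0.24, adjusted p = 0.00134) were lower in late ICMs.

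Promoters of the nuclear genes called lower at both ICM stages in Oct4 KO are printed to show which known motifs of respiratory gene promoters, and which OCT motif, they hold. RefSeq (GRCm38.p6) gave 300-base promoters, from 250 bases before to 50 after the start, for 75 of the 94 nuclear members. Each is written 5′ to 3′ in the direction of transcription, with motif matches on either strand in capitals.
Sdha (chr13:74350191-74350490, minus strand): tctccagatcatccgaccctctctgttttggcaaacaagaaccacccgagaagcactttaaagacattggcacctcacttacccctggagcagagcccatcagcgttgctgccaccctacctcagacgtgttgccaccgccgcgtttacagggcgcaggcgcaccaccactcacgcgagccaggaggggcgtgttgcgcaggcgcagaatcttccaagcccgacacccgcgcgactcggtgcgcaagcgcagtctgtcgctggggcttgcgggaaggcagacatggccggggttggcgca
Sdhb (chr4:140961021-140961320, plus strand): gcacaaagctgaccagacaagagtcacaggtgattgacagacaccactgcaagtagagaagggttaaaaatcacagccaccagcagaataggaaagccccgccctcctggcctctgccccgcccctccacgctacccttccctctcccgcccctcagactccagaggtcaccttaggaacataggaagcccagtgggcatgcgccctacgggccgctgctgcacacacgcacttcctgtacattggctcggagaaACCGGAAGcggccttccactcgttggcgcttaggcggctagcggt
Sdhd (chr9:50603800-50604099, minus strand): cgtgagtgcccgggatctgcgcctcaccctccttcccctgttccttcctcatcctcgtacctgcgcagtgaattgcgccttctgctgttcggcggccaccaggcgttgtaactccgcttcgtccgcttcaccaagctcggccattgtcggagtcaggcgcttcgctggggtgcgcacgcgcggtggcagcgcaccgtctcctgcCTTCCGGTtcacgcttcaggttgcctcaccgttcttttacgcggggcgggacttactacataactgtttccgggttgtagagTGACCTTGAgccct
Ndufv2 (chr17:66101510-66101809, minus strand): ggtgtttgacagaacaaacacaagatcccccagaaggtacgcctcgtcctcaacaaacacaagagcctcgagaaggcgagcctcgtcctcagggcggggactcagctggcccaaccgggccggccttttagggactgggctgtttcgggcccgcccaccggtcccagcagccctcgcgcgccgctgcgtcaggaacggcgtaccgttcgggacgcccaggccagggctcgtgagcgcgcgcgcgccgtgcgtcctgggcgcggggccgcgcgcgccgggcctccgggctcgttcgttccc
Ndufs4 (chr13:114388045-114388344, minus strand): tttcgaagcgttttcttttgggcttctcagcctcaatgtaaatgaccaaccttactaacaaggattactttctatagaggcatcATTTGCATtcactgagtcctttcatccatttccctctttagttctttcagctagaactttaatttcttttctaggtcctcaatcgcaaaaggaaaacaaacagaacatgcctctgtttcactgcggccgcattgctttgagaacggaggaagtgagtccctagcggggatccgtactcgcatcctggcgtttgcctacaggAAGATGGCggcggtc
Ndufaf4 (chr4:24897833-24898132, plus strand): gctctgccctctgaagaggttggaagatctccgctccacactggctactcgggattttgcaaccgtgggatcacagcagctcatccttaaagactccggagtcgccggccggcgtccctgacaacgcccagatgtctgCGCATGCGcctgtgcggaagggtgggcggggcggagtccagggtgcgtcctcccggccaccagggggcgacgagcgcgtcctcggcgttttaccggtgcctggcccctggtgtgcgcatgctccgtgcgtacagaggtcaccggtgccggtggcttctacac
Ndufaf5 (chr2:140170396-140170695, plus strand): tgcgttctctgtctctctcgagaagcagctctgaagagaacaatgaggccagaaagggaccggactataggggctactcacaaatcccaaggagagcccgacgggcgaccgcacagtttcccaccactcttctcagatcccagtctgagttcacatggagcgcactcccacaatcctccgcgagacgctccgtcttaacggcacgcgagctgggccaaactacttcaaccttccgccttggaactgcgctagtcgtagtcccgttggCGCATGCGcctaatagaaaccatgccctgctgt
The capitals mark an ETS match (ACCGGAAG) in Sdhb, an ETS and an ERR match (TCAAGGTCA), both on the opposite strand, in Sdhd, an OCT match (ATGCAAAT) on the opposite strand and a YY1 match (AAGATGGC) in Ndufs4, and an NRF1 match (CGCATGCG) in Ndufaf4 and Ndufaf5. None of the 6 motifs searched matched in Sdha or Ndufv2, and the table used gave no promoter for Uqcrb. Motifs were counted by gene, with a match in any promoter of the gene. The NRF1 motif occurred in 11 of the 75 members (14.7%, against 2.07% of all 27025 genes with a promoter), the YY1 motif in 10 (13.3% against 3.19%), the ETS motif in 8 (10.7% against 2.60%) and the ERR motif in 2 (2.67% against 0.466%). The OCT motif occurred in 1, Ndufs4 (1.33% against 1.97%), and the TATA motif (TATAAA) in 8 (10.7% against 15.7%). A match is only these letters within this window, and motifs of the list overlap in no promoter shown.

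Higher in Oct4 KO at both ICM stages were Atp5g1, Cox5a, Ndufb1-ps, Ndufb10 and Ndufs7. Atp5g1 ranged from 835 over 919 to 981 CPM in Ctrl and from 955 over 1241 to 1575 in KO early ICMs, and from 604 over 1017 to 1361 and from 1228 over 1720.2 to 2212 in late ICMs. Both pairs of groups overlapped, and the log2 fold changes were 0.45 ± 0.10 (adjusted p = 0.000421) and 0.75 ± 0.10 (adjusted p = 2.05e-09). Of the windows near its 3′ end 74.5% occur in another gene. Ndufb1-ps, the mouse gene for the complex I subunit B1, ranged from 49.3 over 91.8 to 119 CPM in Ctrl and from 107 over 164 to 261 in KO late ICMs, an overlap at the edge (1.01 ± 0.16, adjusted p = 4.46e-07), and its early value was 0.58 ± 0.17 (adjusted p = 0.00591). Of the 17 complex V subunits 7 were higher and none lower in late ICMs (median 0.20), beside 16% and 15.7% of all genes, from Atp5a1 at 0.26 to Atp5g1 at 0.75, and with library totals alone 5 of them were called higher and 1 subunit lower. Atp5a1, the alpha subunit, was lower in early ICMs (-0.26 ± 0.09, adjusted p = 0.0271). Cox6a2, the muscle isoform of subunit 6a, had no UMI in 8 Ctrl early ICMs and 30 UMIs in 6 of 8 KO embryos. Against the 3 counts over the group that a count of 0 allows, it was at least 10.3-fold higher in KO.

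**Figure D5:**
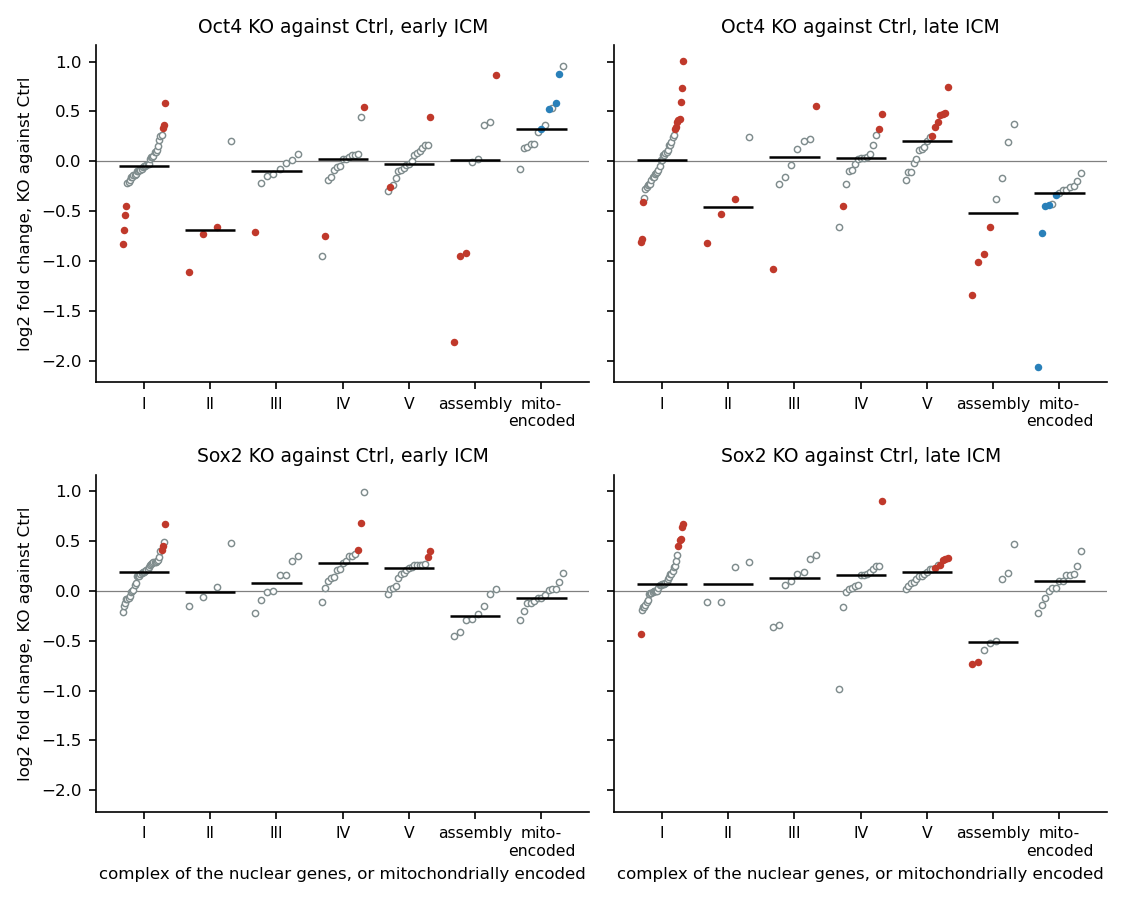
Log2 fold change of KO against Ctrl (y axis) for each gene tested (points), sorted by complex for nuclear genes and with the 13 mitochondrial genes at the right (x axis), for both KOs in early and late ICMs (8 embryos per group). Filled points passed an adjusted p of 0.05, open points did not, and bars are medians. Cox6a2 is left out. Of complex II (medians -0.69 and -0.45) Sdha, Sdhb and Sdhd lie below 0 and Sdhc above 0 in the Oct4 KO panels, and the mitochondrial genes have medians of 0.33 in early and -0.32 in late ICMs.

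In Oct4 KO the mitochondrial genes called in early ICMs were higher and those called in late ICMs lower than in Ctrl. Of the 4 called in early ICMs 2, mt-Co1 and mt-Nd4, were called in the opposite direction in late ICMs and 0 in the same one. Over all genes 1.15% of the early calls were opposite in late ICMs and 61.4% the same. The summed share of the mitochondrial genes ranged from 3.10% to 4.06% in Ctrl and from 3.41% to 4.68% in KO early ICMs, and from 2.70% to 5.70% and from 2.20% to 4.51% in late ICMs, with overlap at both stages. In early ICMs mt-Nd5 (0.88 ± 0.16, adjusted p = 1.17e-05), mt-Nd3 (0.59 ± 0.19, adjusted p = 0.019), mt-Co1 (0.53 ± 0.15, adjusted p = 0.00641) and mt-Nd4 (0.33 ± 0.10, adjusted p = 0.00864) were higher. mt-Nd4 was not called with library totals alone (0.25). In late ICMs mt-Nd4l (-2.06 ± 0.68, adjusted p = 0.014), mt-Co3 (-0.71 ± 0.20, adjusted p = 0.00393), mt-Nd2 (-0.45 ± 0.15, adjusted p = 0.012), mt-Co1 (-0.44 ± 0.15, adjusted p = 0.0186) and mt-Nd4 (-0.34 ± 0.10, adjusted p = 0.00377) were lower. mt-Co1 ranged from 1516 over 1782 to 2154 CPM in Ctrl and from 1736 over 2348 to 4019 in KO early ICMs, and from 1319 over 2109 to 2517 and from 1268 over 1341 to 2204 in late ICMs. All these groups overlapped. mt-Nd4l rests on a mean of 3.39 CPM in Ctrl and 0.657 in KO late ICMs.

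The change of the Oct4 KO effect between stages was itself tested. It was called for 7 members, against 4.46% of all genes (2.92% higher, 1.54% lower, and 3.11% with a 2-fold minimum), with 2 nuclear genes higher and 5 mitochondrial genes lower in late than in early ICMs. The mitochondrial genes were mt-Nd4l (-3.02 ± 0.85, adjusted p = 0.0207), mt-Nd5 (-1.17 ± 0.23, adjusted p = 0.000528), mt-Co1 (-0.96 ± 0.21, adjusted p = 0.00267), mt-Nd2 (-0.82 ± 0.21, adjusted p = 0.00942) and mt-Nd4 (-0.67 ± 0.14, adjusted p = 0.00108), and the nuclear genes were Atp5a1 (0.51 ± 0.13, adjusted p = 0.00769) and Cox7a2l (0.52 ± 0.16, adjusted p = 0.0354). The median was -0.70 over the mitochondrial genes, 0.13 over the nuclear genes and 0.02 over all genes. Within title set 1 the mean mitochondrial share was 4.45% in Ctrl and 3.19% in KO, and within set 2 it was 5.39% and 4.08%, so KO was lower in both. The mean nuclear share was 3.51% in Ctrl and 3.29% in KO within set 1, and 2.79% and 3.04% within set 2, so KO was lower in set 1 and higher in set 2. With the set as a block 28 members were called in late ICMs, 13 nuclear higher, 10 nuclear lower and 5 mitochondrial lower, mt-Co2 in place of mt-Nd2.

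Markers of other lineages moved with the Oct4 KO comparisons. The summed level of 10 trophectoderm markers ranged from 427 to 1378 CPM in Ctrl and from 884 to 1563 in KO early ICMs, and from 282 to 1017 and from 1494 to 3455 in late ICMs, where 9 of the 10 were called higher. That of 10 epiblast markers ranged from 2388 to 3588 CPM in Ctrl and from 1442 to 2080 in KO early ICMs, and from 2940.1 to 4379.6 and from 504 to 1356 in late ICMs, where all 10 were called lower. The epiblast list holds Pou5f1, the deleted gene, whose fall the genotype fixes. The sum over 10 primitive endoderm markers ranged from 590 to 896 CPM in Ctrl and from 800.3 to 1262 in KO early ICMs, and from 287 to 1555 and from 980.1 to 1753 in late ICMs. None of these markers was at 0 in all Ctrl or all KO late ICMs. Their part in the result was not tested. Fewer cells of a type and less RNA per cell cannot be told apart in these samples.

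Loss of Sox2 changed fewer members. In morulae none was called by edgeR or DESeq2, and of all genes edgeR called 0.00712%, which was lower in KO and passed the 2-fold minimum, with 0% higher. At an unadjusted p under 0.05 there were 1 nuclear and 4 mitochondrial genes, and all 13 mitochondrial genes had a log2 fold change below 0 (-0.40 to -0.06). In early ICMs 7 nuclear genes were higher and none lower in Sox2 KO, against 7.04% of all genes called (3.22% higher, 3.82% lower, and 3.27% with a 2-fold minimum, which no member passed), with medians of 0.18 over the nuclear genes and -0.01 over all genes, and 3 of the 7 (Atp5g1, Cox6a1 and Ndufb10) were called with library totals alone. DESeq2 called 13 members there, and 4 were called without the detection filter. The median was 0.26 over the 57 short nuclear members and 0.02 over the 32 longer ones, against 0.08 and -0.03 over all protein-coding genes, and the part of length was not tested. In late ICMs 12 were higher and 3 lower, against 13.8% of all genes (6.96% higher, 6.81% lower, and 6.95% with a 2-fold minimum, which 1 member passed), with medians of 0.11 and 0.00, and with library totals alone 5 were higher and 6 lower. Without the detection filter 9 members were called in late ICMs. No mitochondrial gene was called at either ICM stage, and their medians were -0.07 and 0.09. At an unadjusted p under 0.05 there was no mitochondrial gene at either stage, and DESeq2 called none.

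Cox7a1, the muscle isoform of subunit 7a, was higher in Sox2 KO at both ICM stages. It ranged from 10.8 over 21.6 to 29.8 CPM in Ctrl and from 23.4 over 33.1 to 49.2 in KO early ICMs, and from 12.2 over 23.2 to 40.7 and from 29.3 over 48.5 to 60.0 in late ICMs. The groups overlapped at both stages, with log2 fold changes of 0.68 ± 0.23 (adjusted p = 0.0491) and 0.90 ± 0.22 (adjusted p = 0.00199), and the early call was lost with library totals alone. Ndufb10 ranged from 92.4 over 104 to 115 CPM in Ctrl and from 111 over 174 to 195 in KO early ICMs, an overlap at the edge (0.67 ± 0.13, adjusted p = 0.000198). Ndufa5 ranged from 46.7 over 64.1 to 85.9 CPM in Ctrl and from 81.2 over 106 to 139 in KO late ICMs, again overlapping at the edge (0.64 ± 0.14, adjusted p = 0.000384). Both are accessory subunits of complex I, as is Ndufa3, which was higher in late ICMs (0.67 ± 0.17, adjusted p = 0.00247). Atp5g1 (0.34) and Atp5j2 (0.40) were higher in early ICMs. Atp5g1 was also called higher in late ICMs. With Cox7a1 it made up 28.6% of the 7 nuclear genes called in early and 13.3% of the 15 called in late ICMs. Over all genes 55.9% and 28.6% of the calls were shared in direction between the stages. Of the complex V subunits 5 were called higher in late ICMs by 0.23 to 0.33, beside 6.96% of all genes. None of these 5 calls held with library totals alone.

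Lower in Sox2 KO late ICMs were Ndufaf4, Ndufaf3 and Ndufv2. Ndufaf4 ranged from 43.5 over 50.7 to 61.8 CPM in Ctrl and from 17 over 28.9 to 52.9 in KO (-0.73 ± 0.23, adjusted p = 0.0179). Ndufaf3 ranged from 27.5 over 45.4 to 48.2 CPM in Ctrl and from 17.1 over 24.6 to 36.0 in KO (-0.72 ± 0.22, adjusted p = 0.0159). Both overlapped between groups. The median over the 8 assembly factors was -0.52, the value also seen in Oct4 KO late ICMs. Cox6a2 was called higher (2.39 ± 0.72, adjusted p = 0.0158), but 41 of its 52 UMIs in KO came from 1 embryo at 47.6 CPM. The other 7 embryos averaged 1.91 CPM, against a mean of 1.38 in Ctrl, and DESeq2 did not call it. The summed level of the trophectoderm markers ranged from 187 to 637 CPM in Ctrl and from 565 to 2241 in Sox2 KO early ICMs, and from 259 to 2850 and from 691 to 1870 in late ICMs. That of the epiblast markers, which include Sox2, the gene deleted here, ranged from 1850 to 3968 CPM in Ctrl and from 1606 to 2173 in KO early ICMs, with overlap. In late ICMs it ranged from 2915 to 4475 CPM in Ctrl and from 1625 to 2762 in KO. The primitive endoderm markers summed to 220 to 894 CPM in Ctrl and 595 to 967 in KO early ICMs. In late ICMs these sums were 365 to 1800 and 628 to 1294 CPM, with overlap at both stages. Foxa2 was at 0 in early ICMs of both genotypes. The part of these cells in the result was not tested.

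The Oct4 and Sox2 KO effects were compared by interaction terms, since each KO has controls of its own line. In early ICMs 9 members differed (8.12% of all genes, 3.29% higher and 4.83% lower), with 1 nuclear gene higher and 6 lower and 2 mitochondrial genes higher in the Oct4 line. In late ICMs 6 differed (8.67% of all genes, 4.18% higher and 4.49% lower), with 1 nuclear gene higher and 5 lower. A 2-fold difference was called for 3 members at each stage, and for 5.52% and 6.3% of all genes. Sdhd had the lowest value in early ICMs, at -1.59 ± 0.24 (adjusted p = 4.87e-07), and differed again in late ICMs, at -1.06 ± 0.23 (adjusted p = 0.000999). In Sox2 KO early ICMs it ranged from 282 over 342 to 447 CPM, against 157 over 267 to 304 in Ctrl, a log2 fold change of 0.48 ± 0.16 that did not pass the test (adjusted p = 0.0524). Sdha differed in early ICMs (-0.67 ± 0.16, adjusted p = 0.00291, with -0.06 ± 0.11 in Sox2 KO). Ndufs4 differed at both stages (-0.69 ± 0.22 and -0.75 ± 0.22, adjusted p = 0.0309 and 0.0194), and so did Cox7a1 (-1.42 ± 0.34 and -1.13 ± 0.37, adjusted p = 0.00281 and 0.0403), which was lower in Oct4 KO early ICMs (-0.74 ± 0.25, adjusted p = 0.0242).

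The remaining differences in early ICMs were Ndufv2 (-0.62), Ndufb4 (-0.60), mt-Co1 (0.65), mt-Nd5 (0.80) and Ndufaf8 (1.28), and in late ICMs Ndufaf6 (-1.05), Uqcrb (-0.72) and Atp5g1 (0.44). Of the nuclear genes called in late ICMs, 8 were called in the same direction in both KOs and none in opposite directions, which is 26.7% of the 30 in Oct4 KO and 53.3% of the 15 in Sox2 KO, against 25.6% and 58.8% over all genes. Higher in both were Atp5d, Atp5g1, Ndufa5, Ndufa9 and Ndufb1-ps, and lower in both were Ndufaf3, Ndufaf4 and Ndufv2. In early ICMs Atp5g1 and Ndufb10 were higher in both, which is 10% of the 20 in Oct4 KO and 28.6% of the 7 in Sox2 KO, against 13.4% and 39.9% over all genes. Cox7a1 was called in opposite directions, as were 1.76% and 5.26% of all genes called. Between early and late ICMs the Sox2 KO effect differed for no member in edgeR or DESeq2, with 0.0427% of all genes called (0.0356% higher, 0.00712% lower, and 0.0427% with a 2-fold minimum) and 7 nuclear genes at an unadjusted p under 0.05.

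MWT embryos share their Ctrl with the KO comparisons. In the Oct4 line they differed from Ctrl in few members. No member was called in Oct4 MWT morulae (0.079% of all genes, 0.0287% higher, 0.0503% lower and 0.0646% with a 2-fold minimum) or early ICMs (0.639%, 0.251% higher, 0.388% lower and 0.373% with a 2-fold minimum), by edgeR or by DESeq2, with 5 nuclear and 1 mitochondrial gene and 2 nuclear and 1 mitochondrial gene at an unadjusted p under 0.05. In late ICMs 4 nuclear genes were lower in MWT (1.58% of all genes called, 0.496% higher, 1.08% lower and 0.797% with a 2-fold minimum), namely Uqcr11 (-0.62 ± 0.14, adjusted p = 0.00749), Uqcr10 (-0.54 ± 0.13, adjusted p = 0.0135) and Uqcrq (-0.50 ± 0.13, adjusted p = 0.0248), all small subunits of complex III, and Atp5j2 (-0.42 ± 0.12, adjusted p = 0.0365). All 4 have transcripts under 1000 bases. The median was -0.24 over the 57 short nuclear members and -0.05 over the 32 longer ones, and short transcripts held 25.0% of protein-coding UMIs in MWT and 27.6% in Ctrl. The primitive endoderm markers summed to 116 to 433 CPM in MWT and 287 to 1555 in Ctrl. The part of length and of these markers was not tested. With library totals alone 1 was higher and 2 lower, and in a fit of these 2 groups alone none was called. In Sox2 MWT early ICMs 2 nuclear genes were higher and 4 lower, and 1 mitochondrial gene was higher and 4 lower (6.33% of all genes called, 3.3% higher, 3.02% lower and 2.58% with a 2-fold minimum). Ndufa4, a subunit found in complex IV, ranged from 217 over 299 to 375 CPM in Ctrl and from 399 over 445 to 489 in MWT, without overlap (0.59 ± 0.13, adjusted p = 0.00194). Lower were Atp5e (-0.61), Cox8a (-0.54), Atp5g2 (-0.51) and Ndufc1 (-0.43), and mt-Nd3 (-0.67), mt-Nd5 (-0.59), mt-Nd2 (-0.53) and mt-Nd1 (-0.33). The summed level of the primitive endoderm markers ranged from 220 to 894 CPM in Sox2 Ctrl and from 986 to 1404 in Sox2 MWT early ICMs, without overlap, and its part in the result was not tested. The mean of Cox8a in MWT early ICMs was 587 ± 65.8 CPM in the Oct4 line (SD, n = 5) and 1015 ± 135 in the Sox2 line (SD, n = 7).

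Tissue-restricted isoforms were near 0 with few exceptions. Cox8b, the heart and muscle isoform of subunit 8, had no UMI in any embryo. Ndufa4l2 had 9 UMIs in 9 embryos, the testis isoforms Cox8c and Cox7b2 had 36 in 24 and 100 in 39, and 32 of those of Cox7b2 were in Oct4 MWT early ICMs. Cox4i2 was found mostly in morulae, with 24, 25 and 19 UMIs in Oct4 Ctrl, KO and MWT and 6 each in Sox2 Ctrl and KO, against 0 to 3 in every ICM group. Cox7a1 and the testis isoform Cox6b2 had UMIs in every group.

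Genes that serve the respiratory chain but fall outside the naming rule were counted from 4 lists. Of 30 tested genes of mitochondrial DNA maintenance and expression, 2 were higher and none lower in Oct4 KO early ICMs (21% of all genes called), 1 higher and 3 lower in late ICMs (31.7%), and in late ICMs of Sox2 KO 1 was higher and 3 lower (13.8%), with none called in early ICMs (7.04%). The same shares of all genes apply to the lists that follow. Mtpap, the mitochondrial poly(A) polymerase, was lower in late ICMs of both KOs (-0.57 ± 0.15 and -0.56 ± 0.15, adjusted p = 0.0015 and 0.00476), and Mterf2 was lower in late ICMs of Sox2 KO (-1.24 ± 0.43, adjusted p = 0.0372). Of 40 tested assembly factors of other complexes or names, 7 were higher and 4 lower in Oct4 KO early ICMs, beside 21% of all genes, and 7 higher and 3 lower in late ICMs, beside 31.7%, against 1 lower and 2 higher and 2 lower in Sox2 KO. These include Nubpl, an iron-sulfur carrier for complex I (-1.03 ± 0.23, adjusted p = 0.000433), and Sdhaf4, an assembly factor of complex II (-0.75 ± 0.18, adjusted p = 0.00138), both in Oct4 KO early ICMs. Sdhaf4 was also lower in Sox2 KO early ICMs (-0.68 ± 0.18, adjusted p = 0.00831), where complex II itself had no called subunit. Acad9, an assembly factor of complex I, was higher in late ICMs of Sox2 KO (1.00 ± 0.31, adjusted p = 0.0169).

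Of 15 mobile electron carriers and enzymes of coenzyme Q synthesis, 2 were lower in Oct4 KO early ICMs (21% of all genes called) and 1 in late ICMs (31.7%), and 1 was lower in late ICMs of Sox2 KO (13.8%). The testis cytochrome c gene Cyct had a log2 fold change of -1.08 ± 0.36 (adjusted p = 0.0206) in Oct4 KO early ICMs, and Cycs, the somatic one, of -0.53 ± 0.15 (adjusted p = 0.00909) in Sox2 KO late ICMs. Of 12 tested nuclear regulators of mitochondrial genes, 3 were lower in Oct4 KO early ICMs, at the same background of 21%, including Yy1 (-0.43 ± 0.12, adjusted p = 0.00483). In late ICMs (31.7% of all genes) 1 was higher, the orphan receptor Esrra (0.76 ± 0.21, adjusted p = 0.0029), and 4 were lower, including Gabpa (-0.43 ± 0.12, adjusted p = 0.00377), which binds ETS motifs. In Sox2 KO the stress-response factor Nfe2l2 was higher in early ICMs (1.13 ± 0.24, adjusted p = 0.000752) and Nfe2l1 lower in late ICMs (-0.56 ± 0.13, adjusted p = 0.00144).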

How the data were processed

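Single-embryo 3′-end cDNA libraries with unique molecular identifiers (UMIs) were sequenced in 123 embryos. The authors deposited a table of UMI counts per gene, made with UMI-tools, Cutadapt, TopHat2 on mm10 with GENCODE vM23, featureCounts and TRUmiCount; the submitters' notes also name Bowtie2 and DESeq2, without versions. All columns were mapped to samples by their titles. Groups were taken from the sample titles. Litters are not given in the sources used here, so p-values measure the spread between these embryos.

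Genes with at least 1 UMI in at least 0.5 of the embryos of a stage were tested with edgeR 4.0.16 in R 4.3.3 (quasi-likelihood F test, TMM scaling, Benjamini-Hochberg adjustment over all genes). One fit over the 96 Ctrl and KO embryos (14053 genes) gave the KO, stage and interaction results, and another over all 123 embryos (13923 genes) the MWT results; SE is the log2 fold change divided by the root of F. DESeq2 1.42.0, library totals alone, no detection filter, an added 2-fold minimum, mitochondrial genes left out of the scaling, other sets of samples, other denominators and blocks were tried as alternatives. Scripts were tested on simulated data, with changes put into genes above a low minimum level in the setting of Oct4 KO late ICMs. Of 100 genes changed by 0.585 on the log2 scale 20% were recovered, and of 100 changed by 1 60% were. A gene that was not called can therefore still have changed. Shares of UMIs were computed without TMM, in Python 3.11.15 with pandas 2.3.3. The depth of 525755 to 1344035 UMIs per embryo sets the precision of scarce members, and a group count of 0 was read as at most 3 counts.

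Named in the text by rule were all mitochondrial genes, nuclear members called with at least a 2-fold change in a KO or stage comparison (the 4 lowest and 4 highest where more than 8 were), the 2 lowest and 2 highest called with a mean of at least 20 CPM, the highest of each complex, tissue-restricted isoforms and, from other lists, 2-fold changes. Other named genes, such as Sdha, Sdhb, Sdhc, Ndufv2, Cox5a, Mtpap and Sdhaf4, were chosen after their values were seen. Members and lists were chosen with earlier results of these data known. Promoters, gene positions and transcripts came from RefSeq GRCm38.p6 and GENCODE vM21 (both GRCm38), and windows of 50 bases were compared by exact match.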

Additional observations from a re-analysis of the deposited data

Results flagged for a closer look

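In 112 sums over groups of 5 to 8 embryos, 2 embryos stood apart from the rest of their group by Dixon's test, which chance does in about 1 in 20 groups. Oct4 Ctrl morula replicate 11 had 0.0188% of its UMIs in complex II, against 0.0245% to 0.0271% in the others. Sox2 KO morula replicate 19 had 0.635% in nuclear complex IV genes, against 0.453% to 0.537%.

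The Oct4 and Sox2 KO effects differed by an interaction test for 9 members in early ICMs, where 8.12% of all genes were called. The differences (Oct4 minus Sox2, log2) were -1.59 for Sdhd, -1.42 for Cox7a1, -0.69 for Ndufs4, -0.67 for Sdha, -0.62 for Ndufv2, -0.60 for Ndufb4, 0.65 for mt-Co1, 0.80 for mt-Nd5 and 1.28 for Ndufaf8. In late ICMs 6 members differed (8.67% of all genes called), with -1.13 for Cox7a1, -1.06 for Sdhd, -1.05 for Ndufaf6, -0.75 for Ndufs4, -0.72 for Uqcrb and 0.44 for Atp5g1. The Oct4 KO effect itself differed between late and early ICMs for 7 members (4.46% of all genes called), with -3.02 for mt-Nd4l, -1.17 for mt-Nd5, -0.96 for mt-Co1, -0.82 for mt-Nd2, -0.67 for mt-Nd4, 0.51 for Atp5a1 and 0.52 for Cox7a2l.

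The stage changes of Ctrl embryos differed between the lines, in a test chosen after the values were seen, for 59 members from morula to early ICM. Of all genes 26.1% were called there. The lowest differences (Oct4 minus Sox2, log2) were those of Cox8a (-3.42), Atp5e (-2.71), Atp5g2 (-2.67) and Ndufb2 (-2.33), and the highest those of Uqcrb (2.52), Ndufs4 (2.25), Atp5mpl (1.65) and Cox6b1 (1.60). From early to late ICM 53 members differed, where 13% of all genes were called. The lowest differences were those of Uqcrb (-1.26), Ndufb3 (-1.21), Atp5mpl (-1.21) and Atp5k (-1.14) and the highest those of mt-Atp6 (1.97), mt-Nd3 (1.78), mt-Co3 (1.5) and Cox8a (1.45).

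Outside the set, Gm13341, a nuclear copy of mt-Co2 on chromosome 2, held 18876 UMIs over all embryos, from 59.2 to 671 CPM.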

How the results depend on the processing

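No named log2 fold change reversed under the alternatives run. Of the values of named genes, 1922 stayed on their side of the threshold, 16 passed it newly and 86 lost it. A 2-fold minimum left 3 (Oct4 KO early ICM), 5 (Oct4 KO late ICM), 0 (Oct4 KO morula), 0 (Sox2 KO early ICM), 1 (Sox2 KO late ICM), 14 and 20 (Oct4 Ctrl, early and late step), 33 and 0 (Sox2 Ctrl, early and late step), 33 and 16 (line difference of these steps), 3 and 3 (Oct4 against Sox2 KO effect, early and late ICM), 2 (Oct4 KO effect between ICM stages), 0 (Oct4 MWT late ICM) and 0 (Sox2 MWT early ICM) members. DESeq2 called 13 in Sox2 KO early ICMs and 7 in Oct4 MWT late ICMs, and library totals alone gave 3 in Sox2 KO early ICMs. Without the detection filter there were 0 in Oct4 KO morulae, 3 for the late difference of KO effects, 1 in Oct4 MWT early ICMs, 4 and 9 in Sox2 KO early and late ICMs and 6 in Sox2 MWT early ICMs. A fit of 2 groups alone gave 0 in Oct4 MWT late ICMs. Leaving out each Oct4 MWT early ICM in turn gave 0 to 0. The nuclear share of Oct4 MWT late ICMs was 3.09% of protein-coding UMIs. In no comparison with 3 or more shared numbers did every pair of same-numbered embryos correlate above 0.1, so the numbers were not taken as pairs. With the replicate block, in the embryos whose numbers are shared, the counts were 12 (Oct4 KO early ICM), 7 (Oct4 KO morula), 44 (Sox2 Ctrl early step), 2 (Sox2 KO early ICM), 3 (Sox2 KO late ICM) and 1 (Sox2 MWT early ICM), and the same embryos without it gave 10, 3, 47, 2, 0 and 0, and 40 for the Oct4 Ctrl early step. No paired analysis was possible because fewer than 2 numbers were shared in Oct4 KO late ICMs, Sox2 KO morulae, the late steps and Oct4 MWT late ICMs. Depth limits mt-Nd4l, Ndufaf5 and the isoforms. Windows shared with other genes limit mt-Co1, mt-Co2, mt-Co3, mt-Atp6, mt-Nd3, mt-Nd4l and, in part, mt-Nd2. The cause was not tested.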
